A study of Homo sapiens with 2 samples.

Results

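Peaks of eIF4A1-bound RNA were examined at 5 genes for abundant structured noncoding RNAs, which are RN7SL1 (7SL RNA), RNA5-8SN4 (5.8S ribosomal RNA), RNVU1-18 (a U1 RNA copy), RNU4-1 (U4) and RNU2-1 (U2). The members are the peaks for which the authors' annotated table gives the gene ID of one of these genes. They numbered 12 of the 1920 peaks in the deposited track (0.625%), with 5 under RNVU1-18, 4 under RNA5-8SN4 and 1 under each of RN7SL1, RNU4-1 and RNU2-1. The genes were selected on having a called peak, that is on the deposited −log10 q (at least 1.30 in every peak), so the presence of a peak is not a result. The track is filed under the IgG sample, but all 1920 peak names begin with the eIF4A1 library's name. It was therefore taken to hold eIF4A1 peaks called over a control, and every value of reads or background below rests on that choice. The study immunoprecipitated RNA from DU145, an established human prostate cancer cell line, with no treatment named in the labels. Per the labels' protocols, 1 cytoplasmic lysate, cleared with beads beforehand, was shared by an eIF4A1 immunoprecipitation (rabbit antibody) and a control one (rabbit IgG), and libraries were made with a stranded mRNA kit and random-hexamer priming. There are 2 samples, 1 library per antibody, so no value has a replicate error and no p-value was computed.

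eIF4A1 is the DEAD-box helicase of the eIF4F complex, which opens structure in mRNA leaders while the small ribosomal subunit is recruited. The RNAs examined here are not its classical mRNA targets. 7SL is the RNA scaffold of the signal recognition particle, which brings ribosomes making secreted proteins to the endoplasmic reticulum. The 18S RNA is the core of the small ribosomal subunit, and 5.8S and 28S belong to the large subunit. All of these are cut from one precursor (45S) encoded in repeated units. U1, U2 and U4 are small nuclear RNAs of the spliceosome that receive their ring of Sm proteins in the cytoplasm before they return to the nucleus. Each of these RNAs is encoded by several near-identical copies, so a read can match more than one place. How such reads were placed was not given in the sources used here.

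Most of the genes named for these peaks stood for another copy or another part of the RNA unit. Of the 12 summits, 3 lay inside the RefSeq span of the gene named for them, namely those of RN7SL1, RNU4-1 and the RNVU1-18 peak at chromosome 1, 143729445 to 143729544. The summits of 3 more peaks under RNVU1-18 lay in other U1 copies, that of the RNU2-1 peak lay in another U2 copy, and those of 3 peaks under RNA5-8SN4 lay in RefSeq 18S or 28S genes. The last 2 peaks were not placed in a RefSeq gene of these families. The rRNA-annotated peak among them lay on an unplaced contig where RefSeq genes were not looked up. The U1-named peak lay 11177 bases past the start of a U1 copy, outside the genes of these families. All positions are 1-based on hg38 (GRCh38).

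The 5 peaks under RNVU1-18 were assigned through 5 different U1 transcripts, all of which the table gives the same gene ID and 7 names. U1 RNA pairs with the 5′ splice site of introns. The RNU1-4 peak (chromosome 1, 16740547 to 16740645) had 16 eIF4A1 reads at its summit and a deposited fold over control of 4.67. The RNU1-3 peak (chromosome 1, 16666818 to 16666837) had 15 reads and a fold of 4.40. The peak inside RNVU1-18 itself had 13 reads and a fold of 3.85, and the peak in the annotated pseudogene RNU1-27P (chromosome 14, 34546737 to 34546841) had 14 reads and a fold of 5.44. These 4 read numbers lie inside one another's exact 95% Poisson intervals (6.92 to 22.2 for the lowest, 9.15 to 26.0 for the highest), so the copies were not distinguishable by reads. Reads here are those stacked at the summit, as worked out from the fold and −log10 p of each peak.

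The 4 peaks lay at the same place on the U1 molecule. All 4 transcripts are 164 bases long, and counted from the 5′ end the summits stood at positions 130 (RNU1-3), 129 (RNU1-4), 127 (RNU1-27P) and 126 (RNVU1-18). Every one of these summits was within 1 base of the 3′ edge of its peak. The intervals covered positions 112 to 131 in RNU1-3, 32 to 130 in RNU1-4, 24 to 128 in RNU1-27P and 27 to 126 in RNVU1-18. All 4 intervals therefore shared the 15 bases from 112 to 126, and none reached the 5′ end, which carries the sequence that pairs with splice sites. Near-identical copies can share reads, so the 4 peaks are not 4 independent observations of U1. RNU1-27P also lies inside the long noncoding RNA LOC105370449. RefSeq holds 21 U1 genes with RNU1 or RNVU1 symbols and 123 pseudogenes of that series, of which 3 and 1 contained a summit.

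**Figure D1:**
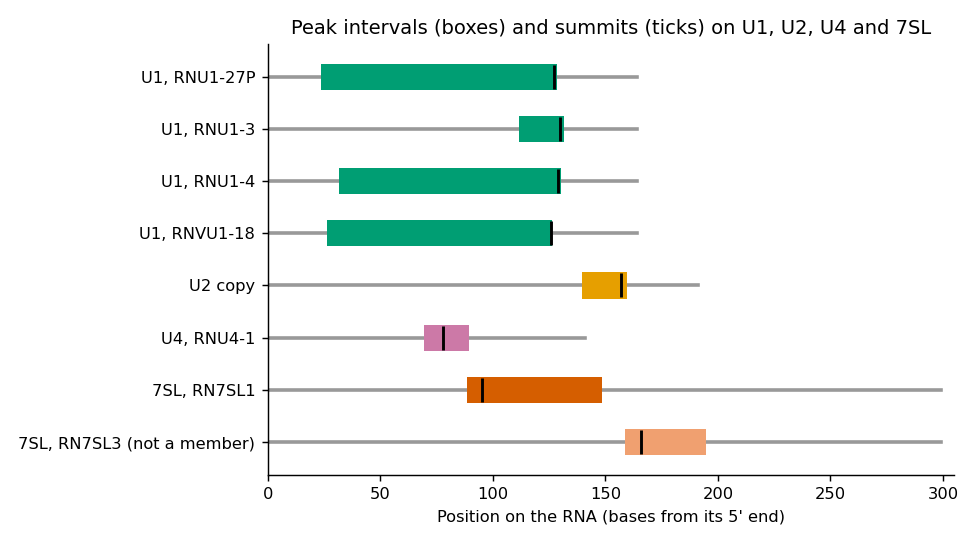
Position of each peak along its RNA, in bases from the 5′ end (grey line: the whole transcript, box: peak interval, tick: summit). The 4 U1 summits stand between positions 126 and 130, while the summits in RN7SL1 and RN7SL3 stand at 95 and 166.

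The remaining peak under RNVU1-18 (chromosome 1, 146387927 to 146387988) is a U1 peak by name only. Its summit lay in the long noncoding RNAs LOC112268274 and LOC100996756, and the authors' table placed it in an exon, 11177 bases past the start of the nearest U1 transcript (LOC124904613 in RefSeq). It had 5 reads over a background of 0.0528 expected reads. This was the highest fold (5.70) and the highest −log10 q (4.94) of the 12, above those of the 4 peaks inside U1 copies.

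Of the 4 peaks under RNA5-8SN4, 3 lay in RefSeq 18S or 28S genes and 0 in 5.8S itself. The last was on an unplaced contig where RefSeq genes were not looked up. The peak on chromosome 21 (8394277 to 8394313) had its summit at base 1614 of RNA18SN3, with 11 reads and a fold of 5.06. A peak on an unlocalized contig of chromosome 22 had its summit at base 1615 of RNA18SN4, again with 11 reads, and a fold of 5.29. The intervals were bases 1612 to 1648 and 1613 to 1647 of their 18S genes, each of 1869 bases, so both describe one site in the 3′ part of 18S RNA, in separate copies of the ribosomal unit. Whether the same reads were counted in both copies was not tested.

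The second peak on the chromosome 22 contig had its summit at base 401 of RNA28SN4 (interval 322 to 401 of 5077 bases), with 15 reads and a fold of 3.54, the lowest of the 12. The last rRNA peak, on an unplaced contig, had 9 reads and a fold of 4.86. Its summit was 2499 bases before the start of the nearest 5.8S transcript in the authors' table. In each of the 5 RefSeq ribosomal units that distance falls inside 18S, at bases 442 to 448. The authors' table classes all 4 as promoter peaks, with distances taken from the 5.8S start.

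**Figure D2:**
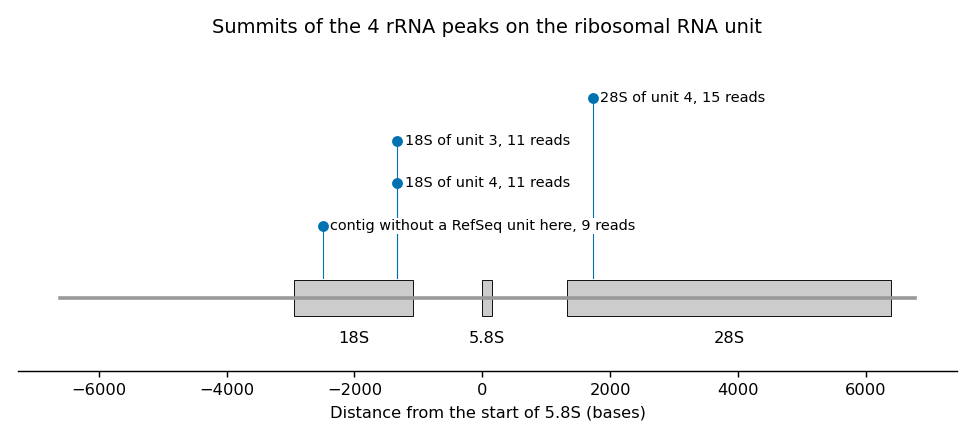
Summits of the 4 rRNA peaks by distance in bases from the start of 5.8S, over the layout of RefSeq unit 4 (grey line: 45S precursor, boxes: 18S, 5.8S and 28S). A pair of summits with 11 reads each coincide in the 3′ part of 18S, and none is in 5.8S. RefSeq genes were not looked up on the unplaced contig, so its label does not show that a ribosomal unit is missing there.

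The most reads among the 12 peaks were found in RN7SL1. Its peak (chromosome 14, 49586668 to 49586727) had 17 eIF4A1 reads at its summit (95% Poisson interval 9.90 to 27.2), and 1 of the 1920 peaks had more. Its fold over control was 3.98. The interval covered positions 89 to 148 of the 299-base RNA, with the summit at 95. RN7SL1 lies inside the span of the ribosomal protein gene RPS29, and without strand in the deposited tables the reads cannot be given to one or the other. RN7SL3, a second 7SL gene that was not among the 5 members, also had a peak (chromosome 14, 49853721 to 49853756) with 10 reads and a fold of 3.99. Its interval covered positions 159 to 194 of an RNA of the same length, so the 2 intervals do not overlap on the molecule, unlike those of U1.

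U4 and U2 had fewer reads than the other RNAs. The −log10 q was 3.15 at RNU4-1 and 3.66 at the peak under RNU2-1. Both lay within the range of the 9 peaks with more than 5 reads (1.54 to 3.78, median 2.86). The RNU4-1 peak (chromosome 12, 120293149 to 120293168) rested on 3 reads, with a fold of 3.93, and covered positions 70 to 89 of the authors' transcript of 141 bases. U4 pairs with U6 and holds it inactive until the spliceosome is activated. RNU4-1 lies inside SIRT4 in RefSeq, and without strand the reads cannot be given to one or the other. The same fold and p were deposited for 277 peaks, that of RNU4-1 included. The peak under RNU2-1 (chromosome 17, 43241212 to 43241231) also rested on 3 reads, with a fold of 3.95. Its summit lay in LOC124904136, a small nuclear RNA gene of 191 bases, at position 157. In chromosome coordinates it was 7237 bases above the highest base of RNU2-1. U2 RNA pairs with the branch point of introns. Both intervals were 20 bases long, the shortest length in the track. An interval of 0.619 to 8.77 reads surrounds a count of 3, so U4 and U2 could not be ranked against each other. It also overlaps the intervals of all the U1 and rRNA peaks except RNU1-4 (9.15 to 26.0). That at RN7SL1 (9.90 to 27.2) is not reached either.

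The background is the number of reads that the peak caller expected at the summit from the control. The deposited fold and p fix the background as well as the reads. In the fold, 1 is added to both before dividing, so at these peaks it is lower than reads over background. In all 1606 peaks above the lowest background, the value was a whole multiple (within 0.02 of a read) of what 1 control read contributes when counted over 10 kb. By that scale 1 control read stacked at the summit is worth 0.880 expected reads. The identity of the control library was not given in the sources used here.

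Control reads were stacked 2 to 4 deep at the U1, 7SL and 28S summits. The background was 3.52 at RN7SL1 and at the 28S peak, the value of 4 control reads. At RNU1-3, RNU1-4 and RNVU1-18 it was 2.64, the value of 3 control reads, and at RNU1-27P it was 1.76, the value of 2. The same values would arise from 100 to 200 control reads spread over 1 kb, and the reading as stacked reads is used here. At these 6 summits the eIF4A1 library therefore had 4.26 to 7.96 times as many reads as the scaled control. The exact 95% intervals of the ratio were 1.58 to 19.7 at RN7SL1, 1.36 to 17.6 at 28S, 1.61 to 30.6 at RNU1-3, 1.74 to 32.5 at RNU1-4, 1.35 to 27.0 at RNVU1-18 and 1.83 to 72.1 at RNU1-27P. All 6 intervals overlap, so the order of these RNAs by ratio is within counting error. The intervals cover counting error only and take no account of the summit having been chosen as the highest point. They also ignore that every peak had passed the caller's q limit, so a lower limit above 1 is not a result.

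The 3 peaks placed in 18S, that on the unplaced contig by distance alone, had a background of another kind. It was 1.37 at RNA18SN3, 1.27 at RNA18SN4 and 1.06 at the peak on the unplaced contig. These are not multiples of 0.880, and correspond to 78, 72 and 60 control reads spread over 1 kb, or to 10 times as many over 10 kb. At each of the 3 summits themselves the control can have held at most 1 read, against 11, 11 and 9 eIF4A1 reads. The background at RNU4-1 (0.0176) equals 1 control read in 1 kb or 10 in 10 kb, and at the U2 copy (0.0123) it equals 7 in 10 kb.

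**Figure D3:**
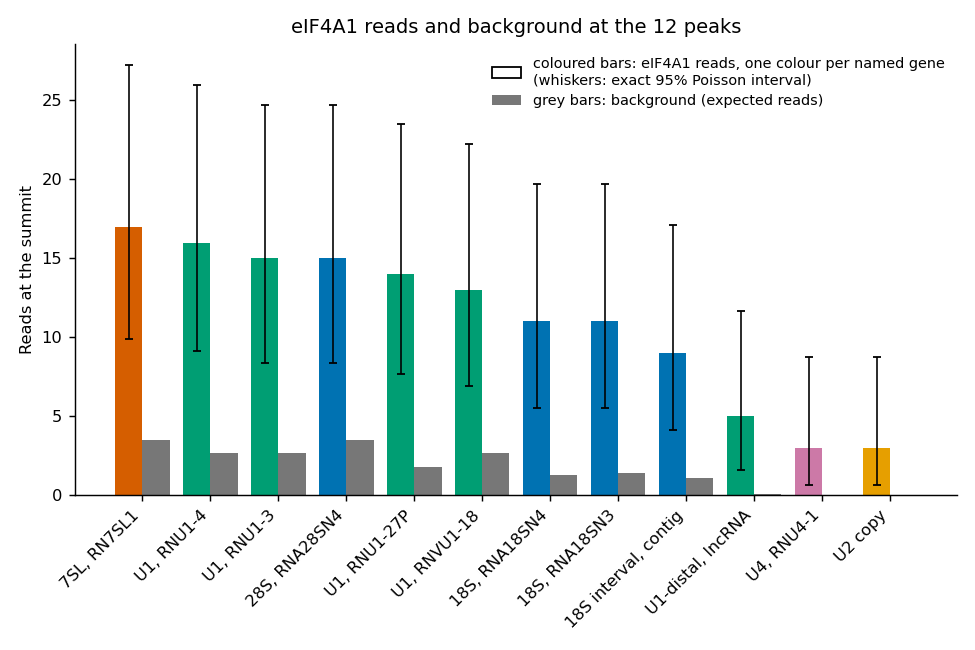
eIF4A1 reads at each of the 12 summits (coloured bars, exact 95% Poisson intervals as whiskers) and the background expected there (grey bars), by RNA. Reads run from 17 at RN7SL1 down to 3 at RNU4-1 and the U2 copy, and the background reaches 3.52 at RN7SL1 and 28S.

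Set beside the whole peak list, these RNAs had many reads and a high background together. At least 10 reads were found at 8 of the 12 peaks (66.7%), against 4.58% of all 1920 peaks, and at least 5 reads at 10 of 12, against 26.7%. A background above 1 expected read was found at 9 of 12 (75.0%), against 2.5% of all peaks. Over such a background only a summit with many reads passes the caller's q limit. The shares of reads and of background are therefore not separate traits. All 39 other peaks with a background above 1 had at least 10 reads. The 12 peaks made up 0.625% of the track but 9 of its 48 peaks with such a background (18.8%). The background at RN7SL1 and 28S was exceeded at 1 peak, and that at RNU1-3, RNU1-4 and RNVU1-18 at 3 peaks. The medians were 12 reads and a background of 1.57 in the 12 peaks, against 3 reads and 0.0176 in the other 1908. These shares and medians, and those of fold and q below, take each copy of an RNA as a separate peak. The U1 peaks are not independent, and whether the peaks at the shared 18S site hold the same reads was not tested.

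**Figure D4:**
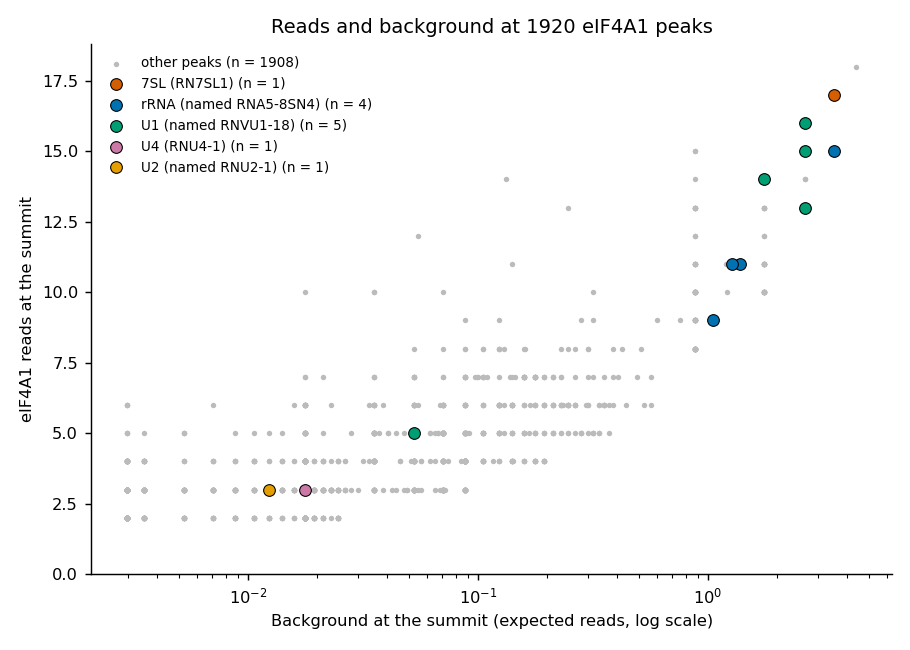
eIF4A1 reads against the background expected at the summit (log scale) for 1920 peaks, with the 12 noncoding RNA peaks in colour by named gene. The 9 peaks in U1, 7SL and rRNA stand at the upper right, above 1 expected read, and those of U4, the U2 copy and the distal U1-named peak stand among the bulk.

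The deposited fold and q did not stand as high as the reads. A fold of at least 5 was found at 4 of 12 peaks (33.3%), against 22.5% of all peaks, and the median fold was 4.53 against 3.99 in the other peaks. Because the fold adds 1 to reads and background, at a low background it is close to the reads plus 1. These folds therefore do not rank the 12 peaks against the others by reads over background. A −log10 q of at least 5 was reached at 0 of 12, against 26.3% of all peaks. Among peaks with at least 10 reads it was reached at 0 of these 8 and at 20 of the 80 others (25.0%), which had a median background of 0.880 against 2.64 here. The −log10 q ran from 1.54 at 28S to 3.78 at RNU1-27P for the 9 peaks with more than 5 reads. These comparisons describe 1 pair of libraries and members chosen with their values known, so no test is attached.

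**Figure D5:**
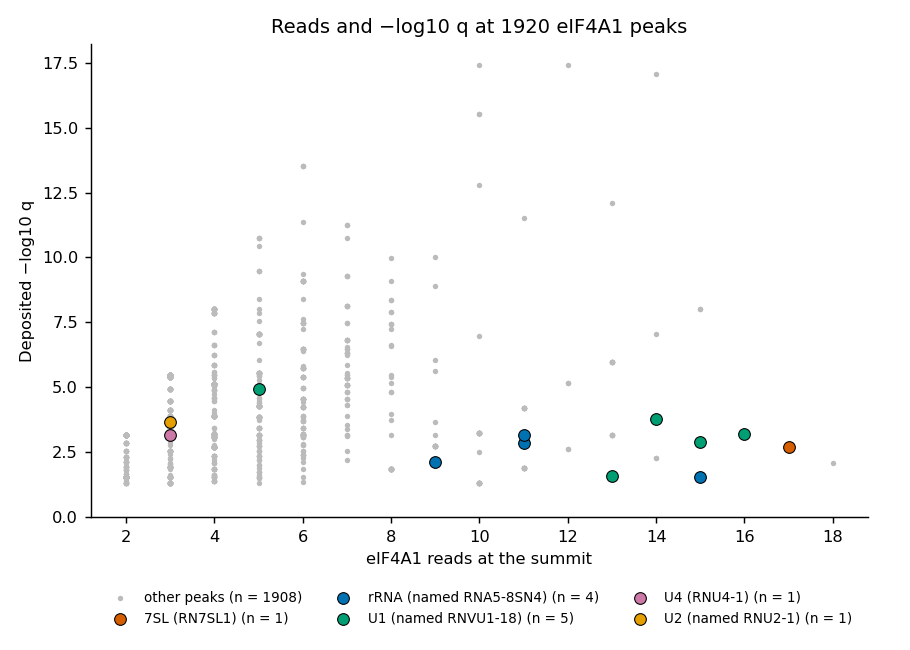
Deposited −log10 q against eIF4A1 reads at the summit for 1920 peaks, with the 12 noncoding RNA peaks in colour by named gene. The 9 peaks in U1, 7SL and rRNA have 9 to 17 reads and a −log10 q of at most 3.78, below a value of 5 that 505 peaks reached.

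In a list of 64 further genes for 7SL, 7SK, Y, vault, small nuclear, ribosomal and nucleolar RNAs, RN7SL3 was the 1 gene that the annotated table named, and the 1 gene with a peak outside the 12. By the position of the summit the count was 8 of 64. The 7 added genes were RNU1-3, RNU1-4, RNA18SN3, RNA18SN4, RNA28SN4 and the precursors RNA45SN3 and RNA45SN4, which hold peaks already among the 12, so they are no further RNAs with peaks. By RNA class in RefSeq, a summit lay in 5 of 156 small nuclear RNA genes and 2 of 4 small cytoplasmic RNA genes. Of 55 ribosomal RNA genes, 5 contained a summit. These include the precursors RNA45SN3 and RNA45SN4, which hold the same summits as the shorter genes inside them. The ribosomal RNA count is therefore not a number of separate peaks. It also leaves out the rRNA peak on the unplaced contig, where RefSeq genes were not looked up. A summit lay in 0 of 1199 small nucleolar RNA genes and 0 of 465 transfer RNA genes. Among 4 Y RNA genes and 4 vault RNA genes it was 0 each. The genes of the RNase P, RNase MRP and telomerase RNAs had 0 as well. For comparison, 6.98% of the 20056 protein-coding genes contained a summit, with gene length not taken into account. A missing peak does not show that an RNA was missing from the precipitate, because the peak names carry the word filtered and no source used here describes that filter. The libraries were also made with an mRNA kit, and its recovery of short RNAs was not tested.

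The mRNAs of proteins that bind or process these RNAs had peaks at about the share of all mRNAs. Of 54 such genes, 4 were named for a peak (7.41%), against 6.83% of all 20056 protein-coding genes, and each of the 4 peaks had 3 reads. The signal recognition particle list had 1 of 8, SRP54, the GTPase subunit that binds signal peptides (fold 3.93). The U1 particle list had 1 of 3, SNRNP70, which encodes the U1-70K protein that binds U1 directly (3.93). The list of Sm proteins and their assembly factors had 2 of 11. These were SNRPD1, an Sm ring subunit (3.93), and SMN1, of the complex that loads the ring (3.92), which has a near-identical copy and is uncertain. The lists of U2 proteins, of U4/U6.U5 proteins and of rRNA transcription and processing factors had 0 of 9, 0 of 10 and 0 of 13. By summit position PRPF31, which encodes a U4 particle protein, is added with 3 reads and a fold of 3.97 at a peak listed under CNOT3. Counted that way, 5 of 54 had a summit inside, against 6.98% of protein-coding genes.

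EIF4A1 had 0 peaks by either assignment. Markers of the cell line could not be checked from a peak list beyond their presence: 1 of 7 epithelial markers was named (CD44), 0 of 6 luminal prostate and androgen receptor markers, and 1 of 4 blood, vessel and stromal markers (VWF, 2 reads).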

How the data were processed

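One eIF4A1 and one IgG immunoprecipitate of DU145 cells were available, grouped by the antibody label. MACS2, ChIPseeker, BWA, STAR, Salmon, Picard and DESeq2 are listed per the submitters' processing notes, with no version, setting or order, as are hg19, GRCh38 and hg38. The deposited track, filed under the IgG sample and read as eIF4A1 peaks from its peak names, gives per peak the fold over control (a linear ratio), −log10 p, −log10 q and a score, by narrowPeak column order, per the file headers. The score deposited by the authors was not used. The authors' annotated table gives 1 summit per peak with the same −log10 q, and lists the track's summits for 1919 of 1920 peaks. Its 42 rows for the 5 genes hold 12 peaks.

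Reads n and background b were solved from fold = (n + 1)/(b + 1) and the Poisson probability of more than n reads. Whole n matched −log10 p within 0.000761 in all peaks, with a second solution within 0.001 in 9. On 500 peaks simulated with the same formulas, 100% were recovered, which does not test that the formulas are the caller's. Simulated backgrounds did not go as low as those at RNU4-1 and the U2 copy. Control reads were derived from b with an extension of 20 bases and windows of 1 and 10 kb, the caller's usual ones, which the sources do not state. The sources used here give no library totals. RefSeq GRCh38.p14 supplied gene spans and classes, and no genome sequence was used. Poisson and Clopper-Pearson intervals are exact, at 95% (scipy 1.17.1). Alternatives were stricter q and fold limits, contigs left out, RefSeq gene bodies and merged peaks.

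All 5 members, every peak of theirs, the genes at their summits, every listed gene with a peak and EIF4A1 are named. Members and lists were chosen with earlier results of these data known. RPS29, SIRT4, CNOT3 and RN7SL4P were named after their values were seen.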

Additional observations from a re-analysis of the deposited data

Results flagged for a closer look

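A signal appeared in data outside the 12 peaks, in a 7SL pseudogene. RN7SL4P (chromosome 3, 15738515 to 15738786), which RefSeq lists as 1 of 684 pseudogenes of 7SL, held a peak that the authors' table names for ANKRD28. It had 13 eIF4A1 reads at the summit (95% Poisson interval 6.92 to 22.2) over a background of 2.64, the value of 3 control reads. The ratio to the scaled control was 4.93 (exact 95% interval 1.35 to 27.0) and the deposited fold 3.85. These values equal those of the peak inside RNVU1-18 and lie within the counting error of those at RN7SL1. Whether these reads came from RN7SL4P or from a 7SL gene was not tested. With 1 library per group, no other rule for a closer look could be applied.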

How the results depend on the processing

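Low read numbers limit these values, since the most reads at any of the 12 peaks were 17, and 2 peaks had 3. What set these read numbers was not tested. The stricter −log10 q of at least 5 left 0 of the 12 peaks, and so 0 with at least 5 reads and 0 with at least 10. It also left 0 of the other noncoding RNA genes and 0 of the partner protein genes, and no median fold could be given. A fold of at least 5 left 4 peaks. These settings leave fewer peaks by construction. Counting table rows in place of peaks gave 42, because each U1 peak is listed under 7 names. Other noncoding RNA genes with a peak rose from 1 to 8 by summit position, but the 7 added genes hold peaks already among the 12. Placed chromosomes alone kept 9 peaks, RefSeq gene bodies gave 9, and merging within 100 bases gave 12, each within 1.5 times of the main count. RefSeq genes with U2 symbols contained 0 summits, since that of the U2 copy lies in LOC124904136. The count inside the named gene stayed at 3 under both other overlap rules. Leaving out a replicate was not run. No paired analysis was possible because there was 1 library per group.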
